A study of Schizosaccharomyces pombe with 3 samples.

Results

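The genes next to the ends of chromosome I of the fission yeast Schizosaccharomyces pombe were examined for binding of Tup12. They were taken by systematic name: reading frames and intergenic regions named for cosmids SPAC212, SPAC977, SPAC1F8, SPAC11D3 and SPAC5H10 at the left end and SPAC750, SPAC186, SPAC869, SPAC922 and SPAC1039 at the right end, without 10 genes of these cosmids that belong mostly to iron uptake, fermentation and carbon use. The rule uses names and no measured value, though it was written with results of these data known. It gave 197 of the 10193 genomic names on the array, 113 at the left end and 84 at the right end, and all 197 matched the reference annotation. They cover 96 genes, 91 of them annotated as protein coding and 5 as pseudogenes. By order in the ASM294v3 reference they lie within the first 71 annotated genes of the left end and the first 44 of the right end, so the label of end-proximal genes fits the reference. One name, SPAC922.08c, is listed there as cat1, an arginine and lysine transporter gene whose other name, SPAC869.11, was among those left out; its upstream feature gave 1.42 ± 0.64 and is counted among those enriched. Genes of the same stretch that the array names by symbol, such as isp3 and dak2, are not among the 197.

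Tup12 is a corepressor of the Tup1 family. Such proteins do not recognise DNA themselves but are carried to promoters by DNA-binding repressors, together with Ssn6, and act on chromatin and transcription there. The chromosome ends of fission yeast carry telomere repeats bound by shelterin, repeated subtelomeric gene families such as the RecQ-type helicase genes, and heterochromatin marked by histone H3 lysine 9 methylation and Swi6. Further inward lie genes for transporters, metabolic enzymes and stress proteins, many of which are weakly expressed in rich medium and induced by starvation.

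All 3 arrays are of 1 group: cells carrying Tup12 fused to GFP, grown in rich YES medium to mid-log phase, with no treatment, no other allele and no further strain detail given in the labels. DNA recovered with a polyclonal antibody against GFP was labelled with Cy5 and set against input DNA labelled with Cy3 on spotted arrays of reading frames (ORF features) and intergenic regions (upstream features, named for the gene whose start they precede). No dye swap is listed, and an untagged control strain is not part of the comparison, so a value is a ratio to input and not to a background of the antibody. Values are log2 of immunoprecipitate over input with the median of each array at 0; errors are SDs over n = 3 arrays. If the arrays do not come from separate cultures, the p-values measure only the spread between arrays. A ratio could be formed for 63.4% to 67.9% of genomic spots, and over the end features the arrays correlated pairwise at r = 0.82, 0.75 and 0.87. "Enriched" and "depleted" mean above or below 0 in limma at a Benjamini-Hochberg adjusted p under 0.05 over all 5460 features with a value on all 3 arrays. Of the 197 names, 7 end in "Missing" and behaved like empty spots, which left 84 upstream features, 96 ORF features and 10 features of long intergenic regions.

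Upstream regions of end genes were often enriched. Of the 84, 58 had a value on all arrays, 13 on 2, 3 on 1 and 10 on none. Among the 58, 35 were enriched and none was depleted, against 43.7% enriched and 7.31% depleted of all 2108 upstream features. No end feature was called below 0 by limma, and 1 lay below 0 at an unadjusted p under 0.05. Because divergent genes share an intergenic region, the 58 features stand for 51 separate regions, of which 32 held an enriched feature. The median was 0.87 (0.90, 1.09 and 0.94 on the single arrays), and that of the other 2050 upstream features was 0.53 (0.56, 0.61 and 0.50). The difference of medians was 0.42 ± 0.07 over the arrays, given as a description with no test. The count rests on which spots are accepted: without the filter on rejected spots 11 of 84 were enriched (15.2% of all upstream features), the difference of medians was -0.03, and 6 of the 35 kept their call. With features of dim input left out, 17 of 35 were enriched, against 39.3% of all upstream features.

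**Figure D1:**
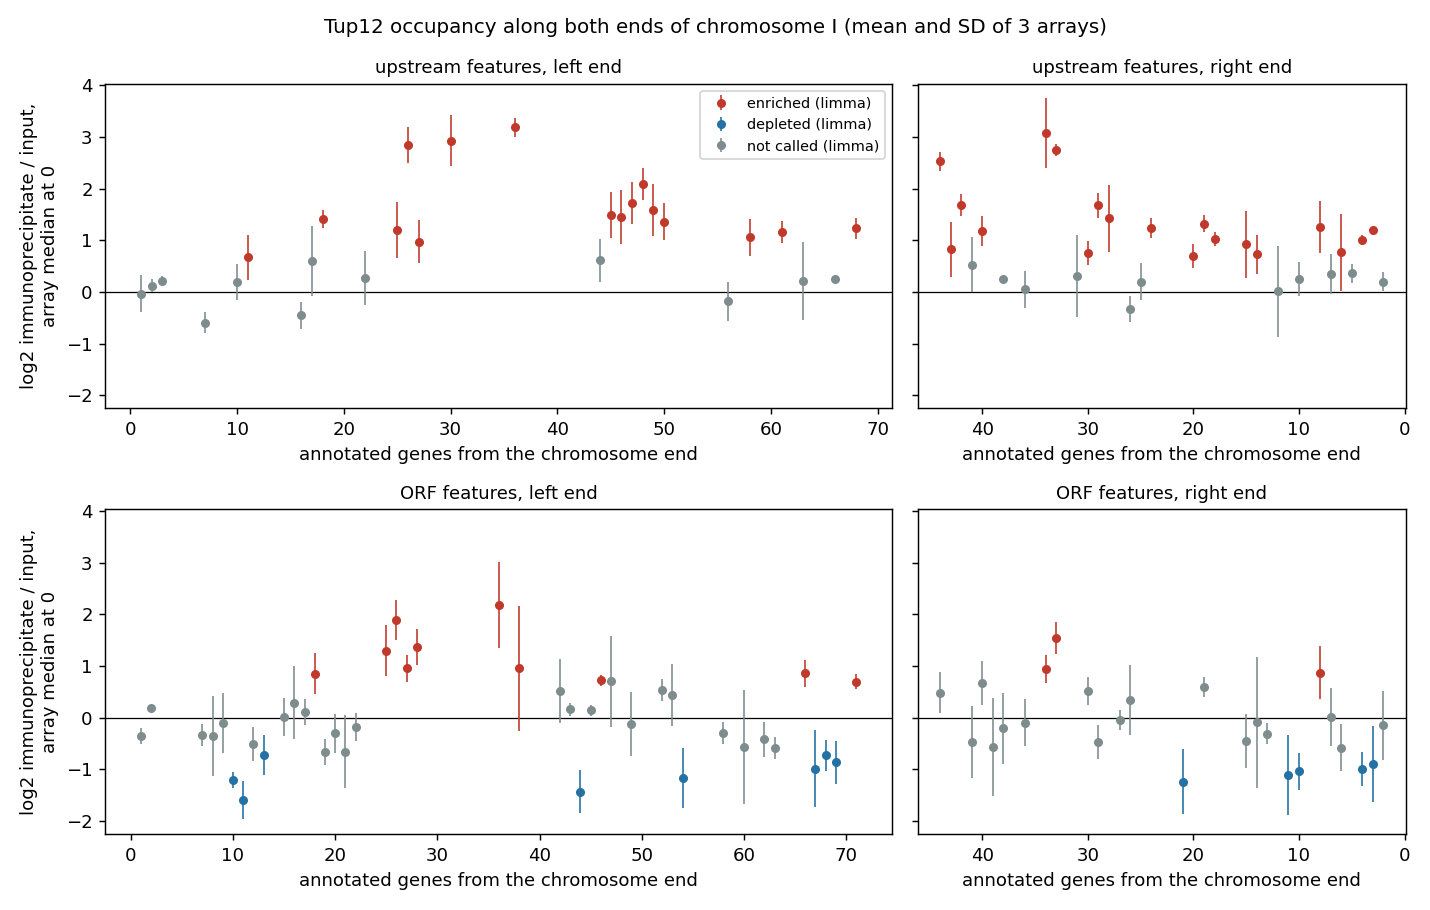
Log2 ratio of immunoprecipitate over input (mean and SD of 3 arrays, array median at 0) against the number of annotated genes from the end of chromosome I, for upstream features (top) and ORF features (bottom) at the left end (left) and the right end (right, end of the chromosome at the right edge). The outermost genes of the left end lie near 0 upstream, the highest upstream values lie 26 to 36 genes from the left end and 33 to 44 genes from the right end, and ORF features lie on both sides of 0.

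The highest upstream feature was that of hhy1 (SPAC1F8.04c), annotated as a hydrolase, the gene at position 36 from the left end. It read 3.386, 3.127 and 3.047 on the 3 arrays, a mean of 3.19 ± 0.18 (limma adjusted p = 7e-10). The hhy1 region is shared with isp3, a divergent gene known from sexual development, whose own feature had values on 2 arrays only, 2.81 and 2.32. SPAC922.03, annotated as a 1-aminocyclopropane-1-carboxylate deaminase, read 3.30, 2.31 and 3.61 (3.0703 ± 0.678, limma adjusted p = 4.3e-09). Its region is shared with the alpha-glucosidase gene gto1, one of the genes left out, where the feature gave 4.02 ± 0.36. SPAC977.17, which encodes a channel protein of the major intrinsic protein superfamily, read 2.83, 2.49 and 3.48 (2.93 ± 0.50, limma adjusted p = 5.5e-09). It is divergent to the dihydroxyacetone kinase gene dak2, whose feature for the same region read 2.73 ± 0.54. The pseudogene SPAC977.13c read 2.97, 3.11 and 2.45, with a mean of 2.85 ± 0.35 (limma adjusted p = 6.2e-09). All single-array values of these genes lay above 2.

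The uncharacterised gene SPAC922.04, next to SPAC922.03, had the tightest of the high values, 2.72, 2.67 and 2.89 (2.76 ± 0.12, limma adjusted p = 7.8e-09). SPAC1039.02, annotated as a phosphoprotein phosphatase, read 2.35, 2.52 and 2.71 (2.53 ± 0.18, limma adjusted p = 3.8e-08). With SPAC922.03, SPAC977.17, SPAC977.13c and SPAC922.04 it kept its call under every alternative that gave it a value, 9 or 10 of them. Of these 5, only SPAC1039.02 remained when features of dim input were left out. That setting removed hhy1 too, whose input was -2.19, and in the authors' series matrix hhy1 read 0.87 and was not called (limma adjusted p = 0.23). The transporter gene SPAC11D3.06, of the MatE family of drug and toxin exporters, read 1.99, 2.45 and 1.85 (2.10 ± 0.31, limma adjusted p = 9.7e-07), but this rests on the lowest input signal of all enriched end features, -2.78, with an immunoprecipitate signal of -0.56, below the array median of that channel. Its divergent neighbour toe4, a transcription factor gene, gave 1.73 ± 0.41 from 1.53, 1.45 and 2.19. The aldehyde dehydrogenase gene atd2 gave 1.68 ± 0.24, the carboxylic acid transporter gene SPAC1039.04 gave 1.68 ± 0.21, the amino acid permease gene SPAC11D3.08c gave 1.58 ± 0.50, and the polyketide cyclase-like gene SPAC11D3.04c gave 1.49 ± 0.44. In the authors' series matrix SPAC11D3.06 and SPAC11D3.08c lay below 0, at -0.15 and -1.64, and toe4, atd2 and SPAC11D3.04c lay near it, at 0.17, 0.09 and 0.10, none of them called. Without the flag filter the calls of all 6 of these genes, from SPAC11D3.06 to SPAC11D3.04c, were lost. In all, 27 of the 58 upstream features exceeded 1 and 7 exceeded 2. The weakest call was that of SPAC212.02, an uncharacterised subtelomeric gene, at 0.92, 0.93 and 0.17 (0.68 ± 0.43, limma adjusted p = 0.049), and the strongest value not called was 0.61 ± 0.42 upstream of SPAC11D3.03c (limma adjusted p = 0.072).

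**Figure D2:**
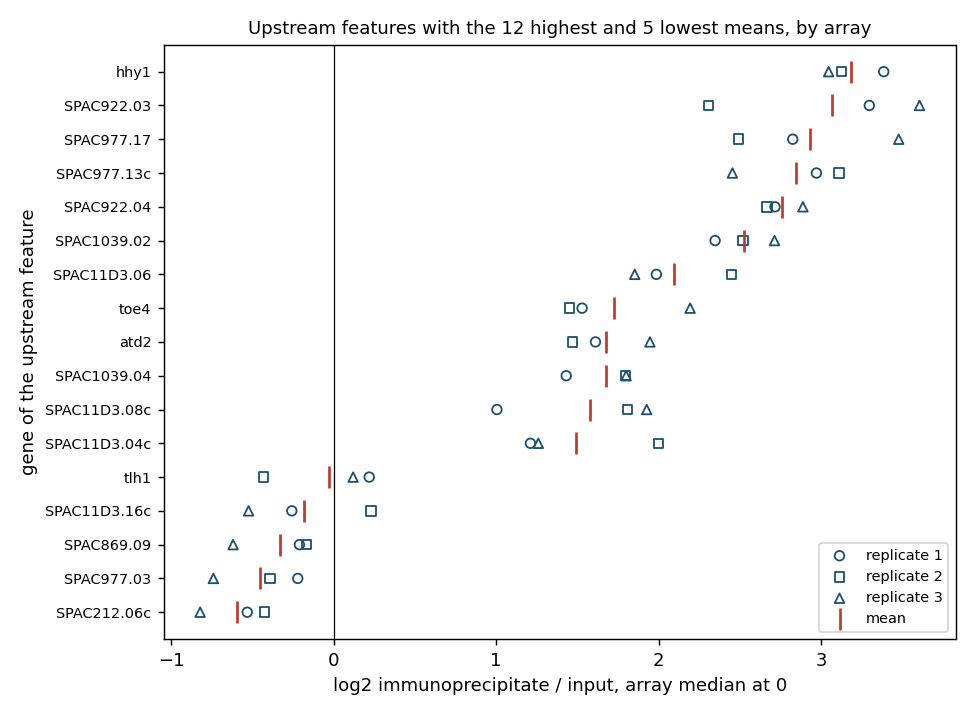
Log2 ratio on each array (open symbols) and mean (red bar) for the upstream features with the 12 highest means among those enriched and the 5 lowest means. All 3 arrays lie above 1 for each of the 12, whereas the 5 lowest lie between -0.82 and 0.23.

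The lowest upstream values lay at the telomeric helicase genes and at scattered genes further inward. SPAC212.06c, a helicase-like fragment, read -0.53, -0.43 and -0.82 (-0.59 ± 0.20, limma adjusted p = 0.076). The methyltransferase gene SPAC977.03 gave -0.45 ± 0.26, the Con-6 family gene SPAC869.09 gave -0.33 ± 0.25 and the uncharacterised gene SPAC11D3.16c gave -0.18 ± 0.38. The upstream feature of tlh1, the RecQ-type helicase gene nearest to the left telomere, read 0.22, -0.43 and 0.12, on both sides of the array median.

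Along the chromosome the enriched regions were spread over both ends. At the left end 16 of 28 upstream features were enriched (median 1.02) and at the right end 19 of 30 (median 0.80). The share over all upstream features was 43.7%. The ends were not tested against each other. By cosmid, from the left telomere inward, the counts were 1 of 6 for SPAC212, 5 of 8 for SPAC977, 1 of 1 for SPAC1F8, 7 of 9 for SPAC11D3 and 2 of 4 for SPAC5H10. From the right telomere inward they were 4 of 7 for SPAC750, 2 of 4 for SPAC186, 4 of 6 for SPAC869, 5 of 6 for SPAC922 and 4 of 7 for SPAC1039. The outermost cosmid of the left end had a median of 0.16, SPAC11D3 1.45 and SPAC922 1.55. Divergent regions were enriched in 22 of 33 features and regions before tandem genes in 13 of 25. The same split was not made over all upstream features, so no contrast particular to end genes can be read from it.

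Features that name both sides of a divergent region were set side by side. The amplified stretches are not given, so the 2 features may not hold the same DNA. Inputs could differ, as for SPAC11D3.04c (-1.53) and mfs2 (0.21), and a gap is not a measure of precision alone. For 9 such regions both features had a value on all arrays, and the 2 means differed by a median of 0.37 and by under 0.5 in 6 of them. SPAC11D3.04c and the transporter gene mfs2 read 1.49 and 1.45, and SPAC11D3.08c and the agmatinase gene SPAC11D3.09 read 1.58 and 1.36. The largest gap, 1.04, was between the alpha-galactosidase gene mel1 (1.24 ± 0.20) and pcm2, a protein repair methyltransferase gene (0.20 ± 0.36). Of the pair SPAC1039.06 and klf1, the former, a D-serine ammonia-lyase gene, was enriched at 1.19 ± 0.29, and the zinc finger factor gene klf1 was not, at 0.53 ± 0.54.

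By role list, most upstream features of metabolic enzymes and transporters were enriched, beside 43.7% of all upstream features; the lists were not tested against other genes. They were made by hand and leave out genes of like annotation, such as the transporter gene SPAC922.05c (0.31 ± 0.80), the pantothenate synthesis gene pan6 (0.25 ± 0.07) and the NADPH dehydrogenase gene SPAC5H10.10 (1.23 ± 0.20). Of 17 metabolic enzyme genes tested, 14 were enriched, with a median of 1.19, from SPAC922.03, the highest, down to the NADPH dehydrogenase gene SPAC5H10.04 at 0.21 ± 0.76. This group includes yhb1, the nitric oxide dioxygenase gene (1.33 ± 0.16), mel1 for melibiose breakdown, atd2, and the aldo-keto reductase genes SPAC977.14c (0.98 ± 0.42) and SPAC750.01 (1.25 ± 0.50). Of 8 transporter genes, 7 were enriched, with a median of 1.52, from SPAC977.17 at 2.93 down to SPAC750.02c at 0.35 ± 0.39, which was not called. Among the 7 were the urea transporter gene SPAC869.03c at 0.70 ± 0.23 and the carboxylic acid transporter gene SPAC11D3.18c at 1.06 ± 0.36. Of the transcription factor genes, toe4 was enriched and klf1 was not; the remaining one, SPAC11D3.17, had a value on 1 array. No upstream feature of a cell surface glycoprotein or of an Hsp31-type chaperone had values on all arrays.

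The outermost subtelomeric families gave a median of 0.60 upstream, with 5 of 11 enriched, near the 43.7% of all upstream features. The highest was SPAC977.05c, a gene with a Vel1p domain, at 1.60, 1.34 and 1.29 (1.41 ± 0.17, limma adjusted p = 0.00015). Upstream of the transmembrane helix gene ftm4 the value was 1.00 ± 0.10, and upstream of the uncharacterised gene SPAC750.06c it was 1.19 ± 0.07. The lowest was the pseudogene SPAC212.10 at 0.13 ± 0.12. Neither upstream feature of the telomeric helicase genes was called, but SPAC212.06c was called depleted with normexp (-1.03), loess (-1.01), without the flag filter (-1.33) and without replicate 2 (-0.68), and enriched in the series matrix (2.98, limma adjusted p = 0.0086). Many of these genes have near-identical copies, mostly at other ends, so their spots may carry signal of more than 1 copy, which was not tested. Of upstream members with such a copy (at least 90% identity over at least 50% of the 500 bases before the start codon in the reference), 6 of 17 were enriched, with a median of 0.35. Of those without, 29 of 41 were enriched, with a median of 1.16. Input signal moved with this split, at a median of 1.03 for features with a copy and -0.78 for the others; its part in the difference was not tested.

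Reading frames of the end genes lay on both sides of the array median. Of the 96 ORF features, 67 had a value on all arrays, 12 on 2, 6 on 1 and 11 on none. Of the 67, 13 were enriched and 13 depleted, against 8.19% enriched and 38.8% depleted of all 3223 ORF features. Their median was -0.12 and that of the other 3156 ORF features -0.50, a difference of medians of 0.42 ± 0.11 over the arrays, with no test. Without replicate 1 the enriched reading frames numbered 7 of 69, and with the zero set on ORF features, whose medians lay between -0.35 and -0.54 on the arrays, they numbered 23 and the depleted ones 5. Shares of all reading frames under these settings are not given, so these changes cannot be read as particular to end genes.

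The hhy1 reading frame was the highest, as its upstream region was, at 2.028, 3.086 and 1.439 (2.18 ± 0.83, limma adjusted p = 1.9e-06). SPAC977.13c followed at 2.08, 2.14 and 1.44 (1.89 ± 0.39, limma adjusted p = 5.1e-06), and SPAC922.04 at 1.53, 1.25 and 1.86 (1.55 ± 0.30, limma adjusted p = 5.5e-05). Reading frames next to SPAC977.13c by name were enriched too: the L-asparaginase gene SPAC977.12 at 1.30 ± 0.49, the aldo-keto reductase gene SPAC977.14c at 0.95 ± 0.26 and the dienelactone hydrolase gene SPAC977.15 at 1.37 ± 0.35. SPAC977.12 and SPAC977.14c have near-identical copies at other ends, so their signal may come in part or whole from those copies. The SPAC977.14c call was lost without replicate 1. SPAC922.03 gave 0.94 ± 0.28, a call lost without replicate 1 and without replicate 3. The call for pfl8, a glycoprotein gene, rested on replicate 2, with 0.68, 2.29 and -0.10 (0.95 ± 1.22, limma adjusted p = 0.02), and was lost without that array. Without the flag filter 1 of the 13 enriched reading frames kept its call, that of SPAC922.04. In the series matrix the calls of hhy1, SPAC922.04, SPAC922.03 and pfl8 were lost. The hhy1 reading frame had an input of -2.07.

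The lowest reading frame was that of SPAC212.02 at -1.39, -2.03 and -1.37 (-1.59 ± 0.37, limma adjusted p = 4.2e-05). Next came the uncharacterised gene SPAC11D3.03c (-1.43 ± 0.42), the formamidase-like gene SPAC869.04 (-1.24 ± 0.63), SPAC212.03 (-1.20 ± 0.15) and the oxoprolinase gene SPAC11D3.14c (-1.17 ± 0.58). In the series matrix, which follows the immunoprecipitate channel more than the ratio, none of these was called, and all but SPAC869.04 had values above 0. By role, 1 of 15 reading frames of the outermost families was enriched and 5 were depleted, near the shares of all reading frames (8.19% and 38.8%). The enriched one was SPAC977.05c at 0.86 ± 0.40, a call lost without replicate 1, without replicate 2 and without the flag filter. Of 15 metabolic enzyme genes, 4 were enriched and 3 depleted, and of 5 transporter genes only mfs2 was enriched, at 0.72 ± 0.11, with SPAC11D3.18c lowest at -0.29 ± 0.21. The mfs2 call was lost without replicate 1, without replicate 3 and without the flag filter. The helicase reading frames of tlh1 and SPAC212.06c read -0.35 ± 0.15 and -0.34 ± 0.21 and were not called. Other settings moved them widely: SPAC212.06c was called at -0.85 with loess and at 4.07 in the series matrix, and tlh1 at -2.52 with normexp and -1.08 without the flag filter. The toe4 and klf1 reading frames were at 0.70 ± 0.89 and -0.47 ± 0.70, the Hsp31-type genes hsp3104 and hsp3102 at 0.44 ± 0.60 and -0.56 ± 1.10, and the flocculin-type gene pfl6 at -0.30 ± 0.37, none of them called.

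Reading frames that are near-identical copies were compared as a check on names. In 14 pairs of copies at the ends of chromosomes I and II with values on all arrays, the means differed by a median of 0.43. SPAC977.14c and SPAC750.01 read 0.95 and 0.87, tlh1 and SPAC212.06c differed by 0.01, and ftm1 and ftm4 read -0.72 and -0.996. The largest gap, 1.48, was between ftm4 and SPBPB2B2.19c of chromosome II, at 0.49 ± 0.19.

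Comparing the upstream region with the reading frame of the same gene asks where along the gene the ratio to input was higher. Both features had values on all arrays for 42 genes. The upstream region was higher in 18 and the reading frame in none (limma over 1312 genes, adjusted p under 0.05), against 47.5% and 3.43% of all genes tested. Of the 42 differences, 27 were above 0 on all arrays, and the median was 0.81. The widest was that of SPAC212.02, at 2.31, 2.96 and 1.54 (2.27 ± 0.71, limma adjusted p = 0.0027), made of a weakly enriched upstream region and the lowest reading frame. That of atd2 was 1.71, 2.19 and 2.56 (2.15 ± 0.43, limma adjusted p = 0.0022), and that of SPAC922.03 was 2.57, 1.46 and 2.35 (2.13 ± 0.59). SPAC750.06c and SPAC11D3.03c followed at 2.09 ± 0.68 and 2.04 ± 0.72. All these genes had less input upstream than in the reading frame, as for atd2 (-1.96 and 0.20) and SPAC212.02 (-0.14 and 2.64). Their immunoprecipitate signal was alike for atd2 (-0.155 and -0.152) and lower upstream for SPAC212.02 (0.67 and 1.17). It was higher upstream for SPAC922.03 (1.81 and 0.58), SPAC750.06c (1.54 and 0.72) and, slightly, SPAC11D3.03c (0.24 and 0.10). The part of input in these differences was not tested. For hhy1 the difference was 1.00 ± 0.84 and was not called (limma adjusted p = 0.066); the single arrays gave 1.36, 0.04 and 1.61. Without replicate 1 the count was 11 of 45, with dim input left out it was 9 of 26, and in the series matrix it was 2 of 47. Shares of all genes under these settings are not given, so lower counts there cannot be read as particular to end genes.

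**Figure D3:**
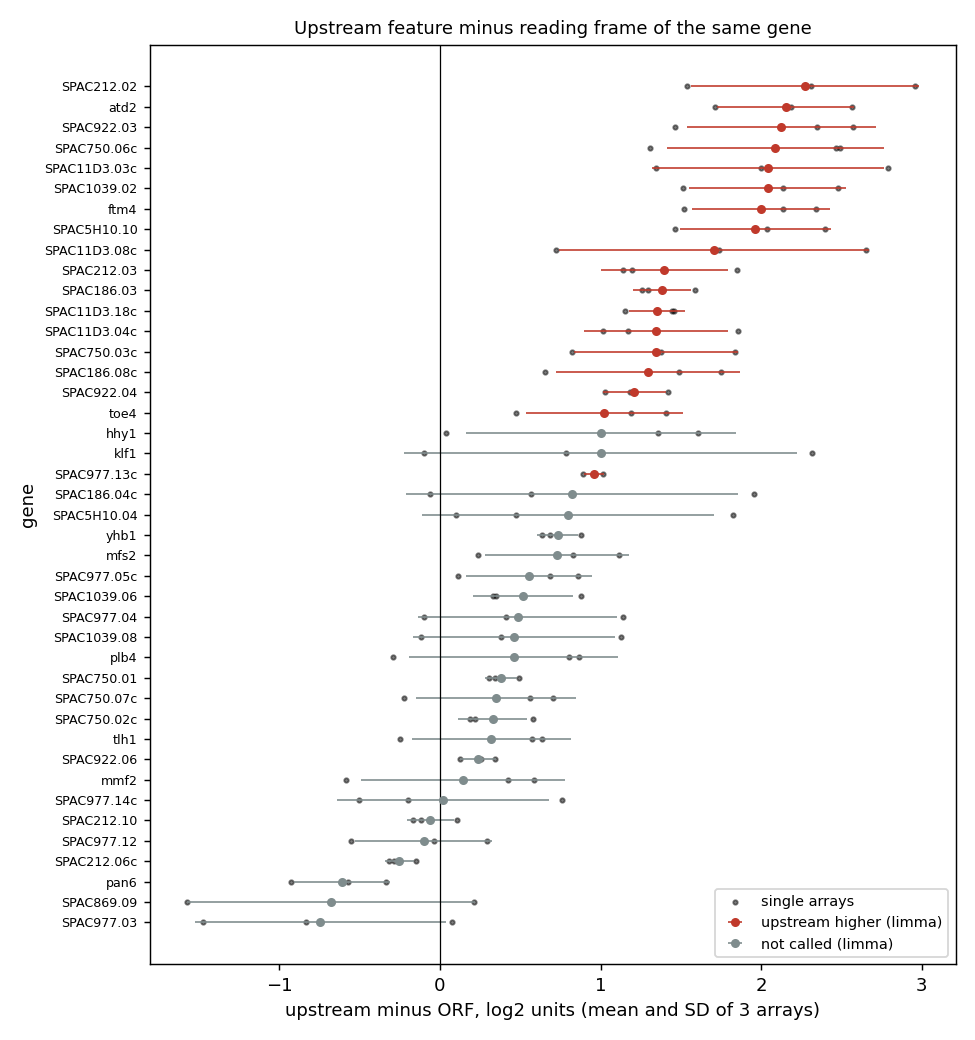
Difference between the upstream feature and the reading frame of the same gene in log2 units for the 42 end genes with both values on all arrays; large points and bars are the mean and SD of 3 arrays, small points the single arrays, and red marks the 18 genes called higher upstream. The means run from -0.74 for SPAC977.03 to 2.27 for SPAC212.02.

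Among the 10 features of long intergenic regions, 9 had values on all arrays, with 3 enriched and 3 depleted (17.8% and 14.7% of all 129 such features). The long region of SPAC977.17 gave 1.73 ± 0.38 and that of SPAC977.05c gave 1.35 ± 0.26, both below but on the same side as the corresponding upstream feature. That of SPAC750.01 gave 0.77 ± 0.69. The depleted ones were those of the hydroxyacid dehydrogenase gene SPAC186.02c (-0.83 ± 0.38), the phospholipase gene plb4 (-0.76 ± 0.27) and the amidase gene SPAC869.01 (-0.74 ± 0.42). The last differs from the upstream feature of SPAC869.01 itself, which was enriched at 1.03 ± 0.14. That upstream feature had an input of -1.57 and an immunoprecipitate signal of -0.41, and the long region had 1.17 and 0.56. The part of input in the 2 calls was not tested.

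A binding list made as the labels describe, of features whose spots have a median percentile rank of 85 or more, held 23 of the 58 upstream features, against 26.1% of all upstream features. It held 5 of the 67 reading frames, those of hhy1, SPAC977.12, SPAC977.13c, SPAC977.15 and SPAC922.04 (3.79% of all reading frames), and 2 of the 9 long regions (11.6%). At a rank of 90 the upstream count was 12. The share of all upstream features at that limit is not given, so this count cannot be set against it.

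Enriched end features tended to have little input signal. The median input of the 35 enriched upstream features was -0.97 on the log2 scale around the array median, and 28 of the 35 lay below that median. For the 13 depleted reading frames it was 1.14, with none below. The immunoprecipitate signal of 28 of the 35 exceeded the median of the names ending in "Missing" on every array, and that of 9 exceeded their 95th percentile. Over the 58 upstream end features, input and ratio correlated at Pearson's r = -0.65 and Spearman's rho = -0.70, and over the 67 reading frames at -0.60 and -0.56. Over the other features the same values were -0.48 and -0.52 upstream (2050 features) and -0.58 and -0.60 in reading frames (3156 features). The input is the denominator of the ratio and features of an array share its hybridisation, so these are descriptions; the part of input signal in the calls was not tested beyond leaving out dim input. SPAC1039.02 combined a high ratio with an input at the array median, 0.07, and mfs2 and SPAC977.05c were enriched upstream with inputs of 0.21 and 0.60.

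**Figure D4:**
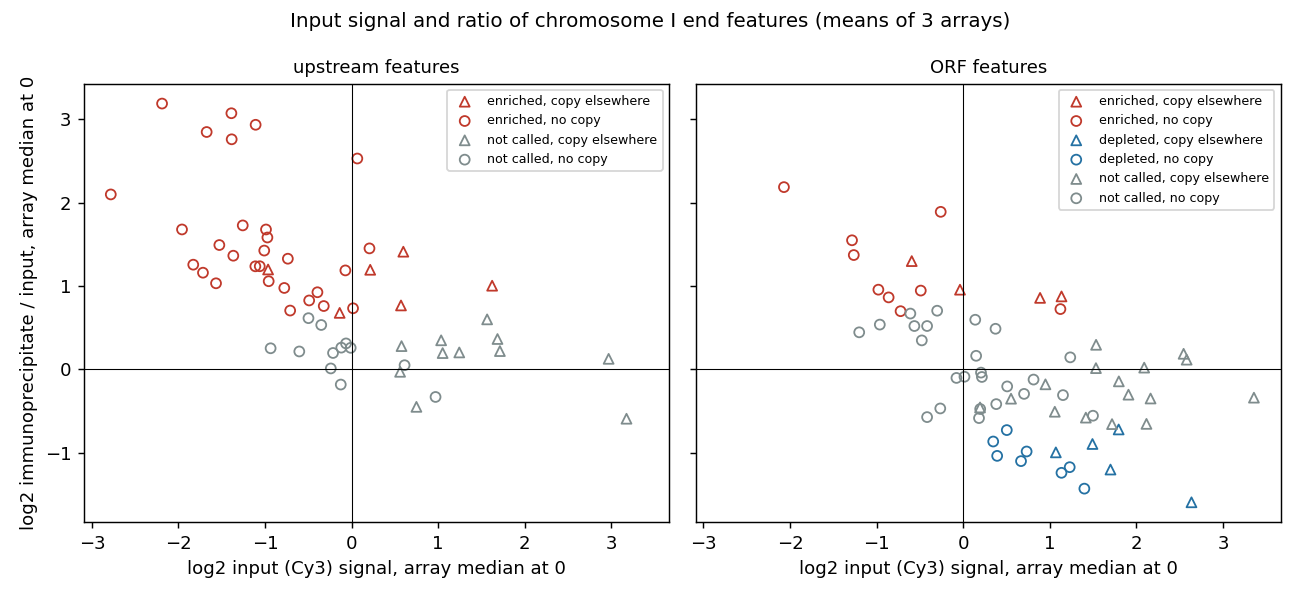
Mean log2 ratio against mean log2 input (Cy3) signal of the 58 upstream (left) and 67 ORF (right) end features, both with the array median at 0; colour gives the limma call and triangles mark features with a near-identical copy elsewhere. Most enriched upstream features lie left of 0 on the input axis, and features with a copy lie mostly to the right.

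Set beside other genes, the end features were not the highest of their neighbourhood. Under the names left out of the same cosmids the array held 7 upstream features, 6 of them with values on all arrays. All 6 were enriched, and their median was 3.62. They include the heme uptake gene shu1 at 4.03 ± 0.43 and the siderophore transporter gene str3 at 3.79 ± 0.39. Left-out genes that the array holds under another name are not among the 6. One is cat1, left out as SPAC869.11 and counted as a member under SPAC922.08c (1.42 ± 0.64). Neighbours named by symbol were enriched too, with 2.57 ± 0.53 upstream of the amino acid transporter gene isp5 and 1.72 ± 0.26 upstream of the gluconate transporter gene ght3. For genes of chromosome II within the same number of genes from an end, 38 of 68 upstream features had values on all arrays. Of these, 30 were enriched, beside 43.7% of all upstream features, with a median of 1.79. Of 61 reading frames there, 13 were enriched and 14 depleted, beside 8.19% and 38.8% of all reading frames, with a median of 0.28. This chromosome II set takes all genes by order, also those named by symbol, with none left out by role. The chromosome I members lack the left-out genes and the neighbours named by symbol, so the medians come from unlike sets. The difference between the ends of the chromosomes was not tested.

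Genes that act on telomeres and subtelomeric silencing, a list of 16 genes outside these stretches, were read for their own Tup12 values. Upstream regions of 7 had values on all arrays and 4 were enriched, beside 43.7% of all upstream features: the heterochromatin protein gene swi6 was highest at 1.68 ± 0.23, followed by the shelterin genes ccq1 (1.67 ± 0.16) and poz1 (1.33 ± 0.33) and by rif1 (0.74 ± 0.10). All 4 had input below the array median, at -1.22, -1.44, -0.65 and -1.40. The immunoprecipitate signal of rif1 was -0.53, below the median of that channel. A feature of tpz1, divergent to rif1, had a value on 1 array only, -3.11. Alternative settings are not given for these genes. The lowest of the 7 was mit1, a chromatin remodeller gene, at -0.44 ± 0.74, not called. Of 8 reading frames tested, that of mit1 was enriched at 0.84 ± 0.51, and those of sgo2, chp2, bqt4 and pot1 were depleted, beside 8.19% and 38.8% of all reading frames, the lowest being sgo2 at -2.17 ± 0.47.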

How the data were processed

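Chromatin immunoprecipitation was measured on 3 two-colour arrays. The authors deposited integrated spot intensities per channel, quantified with TIGR Spotfinder from ScanExpress scans, per the labels' protocols. No source used here states software versions or the array's genome build. The authors' series matrix holds log10 values normalized to the 50th percentile in GeneSpring, per the labels; its medians were 0.02, 0.05 and 0.03, it followed the immunoprecipitate channel (r = 0.79, 0.73 and 0.70) more than the ratio (0.36, 0.26 and 0.35), its centring and direction stay unknown, and it served as an alternative.

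From the intensities, log2 of Cy5 over Cy3 was formed where neither channel of a spot was flagged X. The median of each array (0.52, -0.29 and 0.24) was subtracted, and repeat spots were averaged. Features were tested with limma 3.58.1 in R 4.3.3 (lmFit, eBayes, mean against 0), with Benjamini-Hochberg adjustment over all features at 0.05, and likewise for upstream minus ORF per gene; the code was tested on simulated data. Copies were found with blastn 2.17.0 in ASM294v3, used for names, gene order and neighbours only; base coordinates and sequences are not given because no source names the array's build. The number of arrays limits the precision.

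Members, role lists and tests were chosen with earlier results of these data known. Named were the 12 highest enriched and 5 lowest upstream features, the 8 highest enriched and 5 lowest ORF features, the 5 largest upstream minus ORF differences and the extremes of each role group. Other genes are examples chosen after their values were seen. Alternatives were leaving out each array, centring on ORF features, normexp background (offset 50), loess, no flag filter, leaving out features of dim input, the series matrix, values on 2 arrays, and copies left out.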

Additional observations from a re-analysis of the deposited data

How the results depend on the processing

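No paired analysis was possible because all arrays are of 1 group. Leaving out 1 array gave 29 to 34 enriched and 0 to 1 depleted upstream features, 7 to 17 enriched and 9 to 13 depleted reading frames, 11 to 20 genes higher upstream, 22 to 26 upstream features and 5 to 6 reading frames in the binding list, and differences of medians from other features of 0.34 to 0.43 upstream and 0.36 to 0.42 in reading frames. Without the flag filter, which sets rejected spots to a floor, 11 upstream features were enriched and 2 depleted, 6 reading frames were enriched and 20 depleted, 9 upstream features were in the list, and the differences of medians were -0.0321 upstream and 0.28 in reading frames. In the series matrix 22 of 68 upstream features were enriched, beside 15.3% of all upstream features. There 23 of 65 reading frames were enriched and 0 depleted, 2 genes were higher upstream and 24 reading frames were in the list. The differences were 0.96 and 0.83. With dim input left out, which tests fewer features, the counts were 17 upstream, 7 depleted reading frames and 9 genes, with 0.27 upstream. Centred on ORF features, 23 reading frames were enriched and 5 depleted. Normexp gave 1 depleted upstream feature and a reading-frame difference of 0.67, loess 1 depleted upstream feature and 8 depleted reading frames. A rank of 90 left 12 upstream features and 3 reading frames in the list. With 1 array left out, 31.9% to 41.9% of all upstream features were enriched. Apart from enriched upstream features, no share over all features is given for these alternatives. The other counts therefore cannot be read as particular to end genes. Copies left out, an alternative chosen after seeing the data, left 8 depleted reading frames and differences of 0.62 and 0.59. Leaving out genes with near-identical proteins was intended but not run, since no protein table was used here.

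Over 481 values of 50 named features under single alternatives, 360 kept direction and side of the threshold, 47 lost and 27 gained a call in the same direction, 38 uncalled values changed sign, 5 of them gaining a call, and 9 called values reversed. Reversed in the series matrix were upstream SPAC11D3.06 (-0.15) and SPAC11D3.08c (-1.64) and the reading frames of SPAC212.02 (0.0609), SPAC11D3.03c (1.05), SPAC212.03 (1.25), SPAC11D3.14c (1.02) and SPAC750.06c (0.74); without the flag filter, upstream SPAC212.02 (-0.0577) and the mfs2 reading frame (-0.0122). Apart from the settings' own construction, the cause was not tested. Dim input limits the precision of the ratio.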
